A study of Mus musculus with 8 samples.

Results

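Stretches of the mouse genome where several separate regions gained 5-hydroxymethylcytosine (5hmC) close together after loss of OGT are described here. The signal is CMS-IP, in which bisulfite turns 5hmC into cytosine 5-methylenesulphonate and an antibody recovers the fragments that carry it. A clustered gain was an autosomal region of the authors' deposited list of higher regions that had another higher region less than 10 kb away, edge to edge, and no region of their list of lower regions within that distance. Members were thus chosen by the positions of regions that the authors had called, so the closeness of members to each other is a description and was not tested. There were 883 clustered gains among 8559 autosomal higher regions and among 12594 regions in both lists. They are set beside 7329 single gains, which had neither a higher nor a lower region within 10 kb. The remaining autosomal higher regions lay near a lower region, 29 with and 318 without a higher region also near.

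The cells were mouse embryonic stem cells that carry Ogt fl/fl alleles in all groups. The Ogt iKO group was cultured for 6 days with 4-OHT, a tamoxifen derivative used to switch on a Cre recombinase, and its YFP-positive cells were sorted; the control group was cultured without 4-OHT. Feeder fibroblasts and dead cells were removed from all samples by the sort, and the labels name neither the Cre nor its promoter. Both groups therefore differ in drug exposure and YFP sorting as well as in Ogt, and these cannot be told apart. Each group gave 2 CMS-IP and 2 input libraries (8 samples), and the labels do not say whether replicates were separate cultures. The 2 lists hold positions on mm10 and no value per sample, so the fold change of a region, the depth behind it and the replicate spread are unknown.

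5-Hydroxymethylcytosine is made from 5-methylcytosine by the TET dioxygenases, mostly at CG dinucleotides, and it is found in embryonic stem cells in gene bodies and at enhancers, while CG-rich promoters usually carry little of it. OGT adds O-GlcNAc, a single sugar, to serine and threonine residues of nuclear and cytoplasmic proteins and binds the TET proteins. Oxidised methylcytosine is an intermediate of DNA demethylation.

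Few clustered gains met an annotated start of transcription, at a share close to that of single gains. The share that randomly placed regions of these widths would meet was not computed, so no avoidance of promoters is shown. Promoter windows (250 bases before to 50 after a start, RefSeq, GRCm38.p6, the assembly of mm10) were overlapped by 9 of 848 clustered gains, or 1.06% (95% Wilson interval 0.559 to 2.00%), and by 79 of 7048 single gains, or 1.12% (0.90 to 1.39%). These counts leave out 1 autosome, which was not analysed for start sites here. The windows that clustered gains did overlap are the places where these data bear on a promoter, and the 5 from the clusters with the most covered sequence are printed 5′ to 3′ on the strand of the gene, with each CG, the usual substrate of the TET enzymes, in capitals. They are the windows of E030018B13Rik (chr7:63916607-63916906, plus strand), Gm39918 (chr2:122374583-122374882, plus strand), A430090L17Rik (chr13:114151543-114151842, minus strand), Adgrl2 (chr3:148954586-148954885, minus strand) and Gm35866 (chr19:28364245-28364544, minus strand).
E030018B13Rik: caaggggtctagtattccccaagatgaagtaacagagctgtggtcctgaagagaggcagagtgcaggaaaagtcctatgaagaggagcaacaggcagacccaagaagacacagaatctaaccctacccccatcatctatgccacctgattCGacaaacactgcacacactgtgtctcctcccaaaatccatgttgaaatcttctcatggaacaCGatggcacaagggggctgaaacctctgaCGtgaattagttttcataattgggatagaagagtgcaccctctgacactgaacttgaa
Gm39918: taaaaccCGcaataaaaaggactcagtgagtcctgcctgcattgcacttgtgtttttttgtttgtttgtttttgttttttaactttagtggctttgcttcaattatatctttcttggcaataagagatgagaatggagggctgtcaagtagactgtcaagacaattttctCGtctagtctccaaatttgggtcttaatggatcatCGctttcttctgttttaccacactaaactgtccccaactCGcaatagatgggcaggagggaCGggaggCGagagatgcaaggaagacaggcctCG
A430090L17Rik: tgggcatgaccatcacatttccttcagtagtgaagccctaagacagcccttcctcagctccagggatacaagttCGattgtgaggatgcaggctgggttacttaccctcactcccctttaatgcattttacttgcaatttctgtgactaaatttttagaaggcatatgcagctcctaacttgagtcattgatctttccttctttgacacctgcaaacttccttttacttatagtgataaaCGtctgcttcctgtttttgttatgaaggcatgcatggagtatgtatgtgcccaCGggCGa
Adgrl2: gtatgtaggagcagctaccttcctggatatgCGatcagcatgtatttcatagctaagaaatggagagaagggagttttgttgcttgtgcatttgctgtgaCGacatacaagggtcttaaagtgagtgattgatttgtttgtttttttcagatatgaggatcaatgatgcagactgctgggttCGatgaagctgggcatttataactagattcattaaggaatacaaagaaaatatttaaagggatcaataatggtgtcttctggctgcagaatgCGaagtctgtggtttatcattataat
Gm35866: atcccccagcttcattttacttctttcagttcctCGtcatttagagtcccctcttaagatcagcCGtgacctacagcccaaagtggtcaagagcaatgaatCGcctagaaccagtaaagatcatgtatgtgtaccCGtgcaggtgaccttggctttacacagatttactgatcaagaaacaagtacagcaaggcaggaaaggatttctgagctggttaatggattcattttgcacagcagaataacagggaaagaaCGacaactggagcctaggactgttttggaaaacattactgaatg

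The sequences held CG counts at or below the median of all windows, within their interquartile range. E030018B13Rik held 3 CG dinucleotides in 300 bases, A430090L17Rik and Adgrl2 held 4 each, Gm35866 held 5 and Gm39918 held 7. Over the 10 windows that clustered gains overlapped, the count ran from 3 to 7 with a median of 5, and over the 88 windows that single gains overlapped the median was also 5 (range 0 to 12). All 32851 windows of the table had a median of 7 (interquartile range 3 to 20), so none of the 10 was above that median. Of all windows, 76.7% held at least the 3 CG of E030018B13Rik, and 52.1% at least the 7 of Gm39918.

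The region at the window of E030018B13Rik spanned 4749 bp (chr7:63914670-63919418) and covered all 300 bases. E030018B13Rik lies in the span of Klf13, a Krüppel-like transcription factor gene, and a second region of 2461 bp followed 4434 bp further on within Klf13. The window of Gm39918, a long noncoding RNA gene, was also covered whole, by a region of 3576 bp, as was that of the noncoding A430090L17Rik, by a region of 3190 bp whose neighbour of 1195 bp lay 8899 bp away. In Adgrl2, which encodes the adhesion receptor latrophilin 2, a region of 401 bp covered 148 bases of the window, and a wider region of 2721 bp lay 4224 bp away inside the gene. The Adgrl2 window belongs to a start inside the gene, whose span begins, on its minus strand, at 148989096. Gm35866 lies in the span of Glis3, a zinc finger transcription factor gene, and 256 bases of its window were covered by a region of 1354 bp. The other windows belonged to Wfdc15b, Gm40457 (with 2 overlapping windows), Cyp4b1 and P2ry14, which encodes a receptor for UDP-sugars. The P2ry14 window (59130713 to 59131012) also belongs to a start inside its gene, whose span begins, on the minus strand, at 59153492.

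Most clusters were pairs. The 883 regions chained into 418 clusters of 2 or more, of which 386 were pairs, 29 held 3 regions and 3 held 4. The other 12 members had only neighbours that were themselves near a lower region, so they stood alone after chaining. A pair spanned a median of 6838.5 bp (range 1635 to 14057 bp), a cluster of 3 spanned 13174 bp (6244 to 20119 bp), and the clusters of 4 spanned 13033, 19036 and 23552 bp. Higher regions covered a median of 22.0% of the span of a cluster (interquartile range 13.2 to 34.5%), so most of a cluster was sequence between the called regions.

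The gaps inside clusters had a median of 5131 bp (interquartile range 2857 to 7250 bp). No gap was shorter than 1002 bp, which was the smallest between any higher regions on the autosomes. Among all adjacent autosomal higher regions, 72 gaps fell between 1 and 2 kb and 52 between 2 and 3 kb, while the bins from there to 10 kb held 41 to 56 each. The first bin was thus the fullest, and across the 10 kb limit the counts passed from 41 (9 to 10 kb) to 40 (10 to 11 kb) with no step. The pairs just inside the limit had gaps of 9978 bp (chromosome 14, 74739201 to 74750162) and 9981 bp (chromosome 16, 92903439 to 92914644). Those just outside had gaps of 10026 bp (chromosome 15, 99969349 to 99980747) and 10046 bp (chromosome 5, 131696982 to 131708063).

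**Figure D1:**
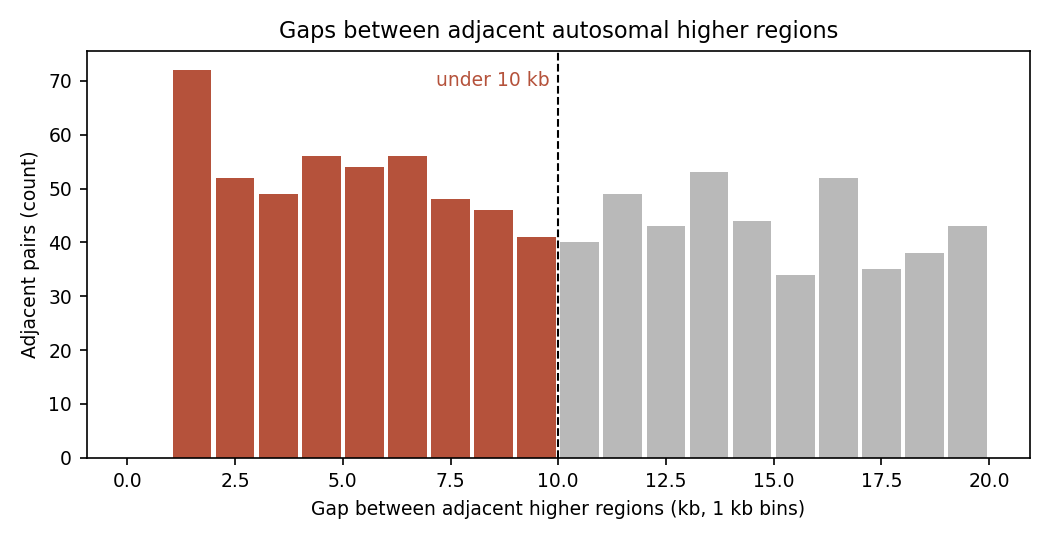
Number of adjacent pairs of autosomal higher regions (y axis) by the gap between them in kb (x axis, 1 kb bins); red bars are gaps under 10 kb and the dashed line marks that limit. The bin from 1 to 2 kb held 72 pairs and the bins on either side of the limit held 41 and 40.

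Clustered gains differed little in width from single gains. The median width was 573 bp for clustered gains (interquartile range 287 to 1021 bp, 883 regions) and 537 bp for single gains (262 to 941 bp, 7329 regions). The smallest width of the list, 200 bp, was found in 13.7% of clustered gains (95% Wilson interval 11.6 to 16.1%) and 13.9% of single gains (13.1 to 14.7%). Regions of 1 kb or more made up 25.8% of clustered gains (23.0 to 28.8%) and 23.0% of single gains (22.1 to 24.0%). These intervals cover counting error only and treat regions as independent, which members of a cluster are not, and no test was made over regions. The widest clustered gain measured 4938 bp, whereas the list as a whole reached 38197 bp.

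The widths of neighbours were close to uncorrelated. In the 386 pairs, Spearman's rho between the width of the first and the second region was 0.01, and in 1253 pairs of adjacent single gains 10 to 50 kb apart it was 0.03 (both across regions, which share their chromosome and the same calling, and given as a description). The wider region of a clustered pair was a median of 2.16 times as wide as the narrower one (interquartile range 1.39 to 3.95). Both regions reached 1 kb in 27 of 386 pairs (6.99%), and 1 reached 1 kb while the other stayed under 500 bp in 85 pairs (22.0%).

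The 3 clusters of 4 regions are described first. The cluster with the most covered sequence among those of 4 regions lay between genes on chromosome 3 (41435665 to 41454700), with regions of 1020, 1785, 2573 and 440 bp; the nearest protein-coding gene, Jade1, which encodes a subunit of a histone acetyltransferase complex, was 101034 bp away. A cluster of 4 on chromosome 4 (59009223 to 59032774) began with a region of 2030 bp in Dnajc25, a J-domain co-chaperone gene, went on with regions of 200 and 225 bp in the same gene and ended with 293 bp beyond it. The third cluster of 4 lay wholly in Cfap54, a gene for a protein of cilia and flagella (chromosome 10, 92779209 to 92792241), and its regions measured 200, 270, 675 and 1153 bp. Wide and narrow regions were thus mixed within each of these clusters.

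The cluster with the most covered sequence of all held 3 regions in the zinc finger gene Zfp951 (chromosome 5, 104809644 to 104828029). Its regions measured 3013, 1318 and 3767 bp and covered 44.0% of the span. Next came 3 regions of 2171, 2140 and 3658 bp in the cytochrome P450 gene Cyp20a1 (chromosome 1, 60352680 to 60372798), which covered 39.6% of their span. In both, every region was wider than 1 kb. The pair in Klf13 covered 7210 bp, and a pair on chromosome 5 (23700624 to 23708812) in the noncoding gene AI506816 covered 6584 bp, or 80.4% of its span, with the widest member at 4938 bp. The midpoint of that widest member also lay in the protein-coding gene Gm42226.

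Of the 32 clusters of 3 or more regions, 20 had all their regions in 1 gene (62.5%). Named here are the 3 of 4 regions and, of the 29 tied at 3 regions, the 12 with the most covered sequence; 11 of these 15 lay in 1 gene. Besides Cfap54, Zfp951 and Cyp20a1 these were in Armh3, in Mia2, whose product acts in export from the endoplasmic reticulum, in Adgrv1, a very large adhesion receptor mutated in Usher syndrome, and in Ctnnd1, which encodes the cadherin-binding p120 catenin. The rest of the 11 were in Ttc3, a ubiquitin ligase gene, in the centrosomal gene Cep44, in Nr3c2, the mineralocorticoid receptor gene, and in Bcl2l13, a mitochondrial member of the Bcl-2 family. Adgrv1 and Nr3c2 showed the same layout, a wide region between narrow ones: 275, 2603 and 241 bp in Adgrv1 and 299, 1818 and 278 bp in Nr3c2. In Armh3, regions of 227 and 277 bp lay beside one of 3042 bp. The 3 regions of Ctnnd1 were of like width, at 864, 922 and 1129 bp. A cluster on chromosome 3 ran across the neighbouring genes Clca3a2 and Clca3b, which encode regulators of calcium-activated chloride channels. Another on chromosome 15 (98167008 to 98183818) had 1 of its 3 regions in the noncoding gene Gm33909. Its span also overlapped the protein-coding gene Ccdc184, in which no region had its midpoint.

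**Figure D2:**
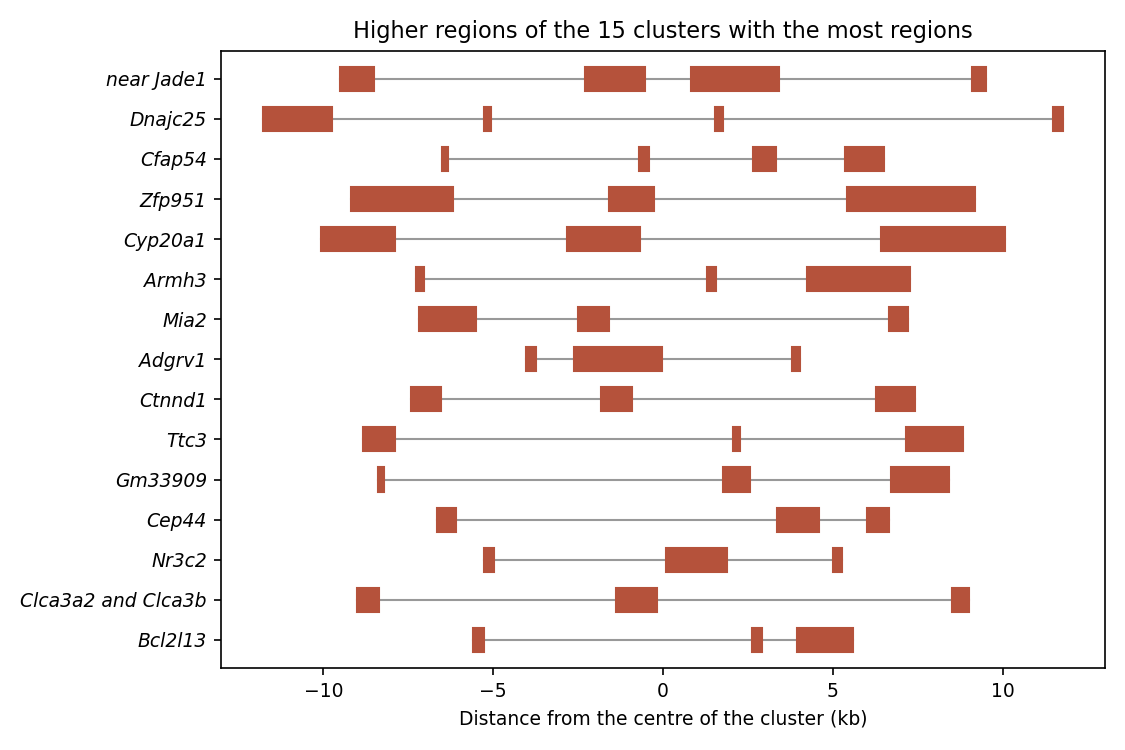
Layout of the 15 clusters with the most regions (ties at 3 regions taken by covered sequence), named by the gene they lie in or near; the x axis is the distance from the centre of the cluster in kb, red boxes are higher regions to scale and grey lines the sequence between them. Zfp951 and Cyp20a1 hold wide regions throughout, while Adgrv1 and Nr3c2 hold a wide region between narrow ones.

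Among clusters of exactly 2 regions, the 5 closest had gaps of 1002 to 1044 bp; a gap of 1021 bp also lay within the cluster of 3 in Bcl2l13. The 5 pairs lay on chromosome 6 (6550340 to 6552791, gap 1002 bp, 5484 bp from Sem1), in Fbxl17, an F-box gene of ubiquitin ligases (gap 1014 bp), in Cacna2d2, a calcium channel subunit gene (gap 1030 bp), in Gtf3c6, a gene of the RNA polymerase III factor TFIIIC (gap 1038 bp), and on chromosome 6 (15716430 to 15718236, gap 1044 bp, 2330 bp from Mdfic). None of the regions in these 5 pairs exceeded 1484 bp.

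Clustered gains lay inside genes more often than single gains. Midpoints fell in a gene, more than 1 kb from either end of its span, for 575 of 883 clustered gains (65.1%, 95% Wilson interval 61.9 to 68.2%) and for 4193 of 7329 single gains (57.2%, 56.1 to 58.3%). The difference was 7.91 percentage points (95% interval from the Wilson limits 4.51 to 11.18). Between genes lay 26.7% of clustered gains (23.9 to 29.7%) and 35.1% of single gains (34.0 to 36.2%). Within 1 kb of a gene end the shares were 8.15% and 7.71%, a difference of 0.44 points whose interval reached from -1.30 to 2.52. With each cluster counted once, by its region of lowest coordinate and with the 12 lone members, the share inside genes was 66.3% and the difference 9.07 points (4.34 to 13.52). For scale, whole gene spans, ends included, take up 49.4% of the annotated autosomal length. By that like measure, 70.0% of clustered and 62.2% of single gains had their midpoint in a gene span. Closeness depends on density, and single gains too lay in gene spans above the share of length. How much of the difference between clustered and single gains goes with density was not tested.

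**Figure D3:**
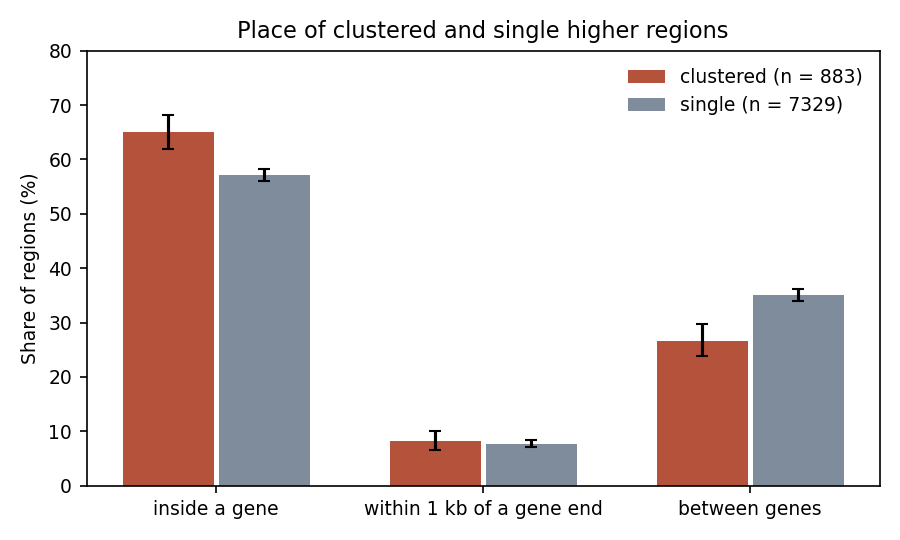
Share of regions in percent (y axis, bars from 0) whose midpoint lies inside a gene, within 1 kb of a gene end or between genes, for clustered (red) and single (grey) higher regions; error bars are 95% Wilson intervals. Inside genes the clustered share is 65.1% and the single share 57.2%, and the intervals as drawn do not overlap. Those of clustered gains treat members of a cluster as independent, which they are not, so they are too narrow.

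Protein-coding and noncoding genes differed in direction. Spans of protein-coding genes held 64.7% of clustered gains (571 regions) and 53.9% of single gains (3949 regions). Spans of noncoding genes alone held 5.32% of clustered and 8.28% of single gains. Seen the other way, among clustered and single gains together the clustered ones made up 12.6% of those in protein-coding genes (95% Wilson interval 11.7 to 13.6%), 7.19% of those in noncoding genes only (5.45 to 9.43%) and 8.72% of those in no gene (7.77 to 9.78%).

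Clusters were usually held by a single gene. All regions of a cluster lay in 1 gene for 255 of 418 clusters (61.0%), and for 241 (57.7%) when protein-coding genes alone were used. A further 100 clusters (23.9%) had no region in a gene, 55 (13.2%) had some regions in and some out, and 8 (1.91%) were spread over different genes. Adjacent single gains 10 to 50 kb apart shared a gene in 515 of 1253 pairs (41.1%), but these lie further apart by construction, so the shares were not compared further.

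Within genes, clustered and single gains were placed alike along the direction of transcription. Position could be read for 439 clustered and 3029 single gains that lay in exactly 1 protein-coding gene with a known strand. The median position was 54.2% of the way from start to end for clustered gains (interquartile range 26.3 to 76.3%) and 54.0% for single gains (28.6 to 75.9%). Of 5 equal parts of the gene, the first held 18.2% of the clustered gains and part 4, the fullest, held 23.9%; for single gains these were 17.0% and 22.2%. Leaving out chromosome 18, the nearest start site of any gene was a median of 26702.5 bp from a clustered gain (848 regions) and 30401.5 bp from a single gain (7048 regions), and 2.12% and 1.93% lay within 1 kb of one. Of the clustered gains, 60.8% lay downstream of their nearest start (95% Wilson interval 57.5 to 64.1%), against 56.2% of single gains (55.0 to 57.3%).

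Of 20554 autosomal protein-coding genes, 298 (1.45%) held the midpoint of at least 1 clustered gain. For comparison, 14.3% held a single gain and 8.23% a lower region. Genes with a clustered gain had a median length of 88.0 kb (interquartile range 40.4 to 201 kb), and genes with single gains alone 78.5 kb (36.7 to 164 kb), while the median of all 20554 was 17.6 kb. A lower region was also present in 63 of the 298 genes (21.1%, 95% Wilson interval 16.9 to 26.1%) and in 543 of 2810 genes with single gains alone (19.3%, 17.9 to 20.8%).

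Long genes held a clustered gain more often but were not the densest. The share of genes with a clustered gain rose from 0.254% of genes under 20 kb to 8.37% of those over 500 kb. Per Mb of gene, clustered gains were densest in genes of 50 to 100 kb, at 0.831 per Mb, and sparsest in those over 500 kb, at 0.286 per Mb. Single gains followed the same order at these points, with 4.80 and 2.49 per Mb. The clustered share of all higher regions in a gene class lay between 9.89% (over 500 kb) and 14.2% (50 to 100 kb).

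Of the 298 genes, 211 held 2 clustered gains, and 10 had regions of 2 or more clusters. Cdh13, which encodes the membrane-anchored T-cadherin, and Sox5, a SoxD transcription factor gene, held the most clustered gains, with 7 regions in 3 clusters each. Cdh13 (chromosome 8, 118140017 to 119324929) is 1185 kb long and also held 5 single gains and 4 lower regions. Its clusters lay at 118189158 to 118193710, 118619325 to 118628483 and 118725170 to 118737219, so the first was far from the others. Sox5 (chromosome 6, 143828425 to 144782287) is 954 kb long, with 7 single gains and 0 lower regions. Its clusters spanned 10165, 9467 and 2530 bp, and none of their regions exceeded 837 bp.

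Grip1, a scaffold gene for glutamate receptors, held 5 clustered gains in 3 clusters. The first of these began before the gene (119449609, against a gene start at 119453238), and the second held a region of 4337 bp beside one of 341 bp. Asap1, a gene for an Arf GTPase-activating protein, the kinase gene Cdk14 and the collagen gene Col25a1 held 4 clustered gains in 2 clusters each. Col25a1 also held 2 lower regions, Cdk14 held 1 and Asap1 held 0. Atp8a1, a phospholipid flippase gene, held 3 clustered gains, and its second cluster was a pair of 200 bp regions 9005 bp apart.

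Shorter genes also held several. Bcl2l13 is 56.6 kb long and had 5 clustered gains in 2 clusters that lay 17171 bp apart (chromosome 6, 120845514 to 120848517 and 120865689 to 120876851). Cltc, the gene for the clathrin heavy chain, is 63.2 kb long and had 4 clustered gains in 2 clusters 10661 bp apart, the closest of all neighbouring clusters (chromosome 11, 86702648 to 86715802 and 86726464 to 86736143). Neither gene held a single gain or a lower region, so in both every listed region was a clustered gain. Per 100 kb of gene, this came to 8.83 clustered gains in Bcl2l13 and 6.33 in Cltc, against 0.591 in Cdh13 and 0.734 in Sox5. Across the genome neighbouring clusters were far apart, with a median distance of 2877524 bp, and 6 of 399 neighbouring pairs of clusters were under 50 kb apart. Of these 6, 3 lay wholly within 1 gene (Cltc, Bcl2l13 and Asap1), 1 lay at Ndufs4 with its first region outside the gene, 1 joined Dlat and Dixdc1 and 1 joined Ipo11 and Dimt1.

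Genes of 8 groups, listed with earlier results of these data known, were looked up. None of the 109 autosomal protein-coding genes of O-GlcNAc cycling, DNA methylation and 5hmC, heterochromatin and Polycomb, pluripotency, developmental signalling and imprinting held a clustered gain. With a background of 1.45% of genes, a count of 0 among 109 is too small a base for a statement about these groups. Single gains were present in 3 of 8 O-GlcNAc genes, 1 of 15 DNA methylation genes, 3 of 18 heterochromatin and Polycomb genes, 0 of 20 pluripotency genes, 3 of 30 signalling genes and 5 of 18 imprinted genes, where 14.3% of all genes held one. Lower regions were present in 0, 1, 6, 2, 6 and 3 genes of these groups in the same order, where 8.23% of all genes held one.

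Clustered gains were found in 4 of 30 lineage transcription factor genes (13.3%) and in 4 of 30 genes listed under adhesion and synapse (13.3%). These groups hold long genes, with median lengths of 221 and 997 kb, and 7.82% of all genes of 200 to 500 kb and 8.37% of those over 500 kb held a clustered gain. Both lists were written with earlier results of these data known, so the shares are a description and do not show an excess. The transcription factor genes included Sox5, Mecom with 2 regions of 253 and 812 bp, and Pax3, a factor of neural crest and muscle, with 2 regions of 200 and 226 bp. Pax3 is 95.9 kb long and held 0 single gains and 0 lower regions. From the adhesion and synapse list they were Cdh13, Grip1, Sdk1 with 2 regions of 243 and 290 bp, and Auts2 with 2 regions of 830 and 2677 bp. The list name is a broad label that does not describe Auts2, which is not an adhesion molecule. Auts2 had 14 single gains and Sdk1 had 7, so most of their gains were not clustered.

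The autosomes differed in how many of their gains were clustered. The share was 13.8% on chromosome 5 (78 of 564 higher regions, 95% Wilson interval 11.2 to 16.9%) and 13.4% on chromosome 9 (66 of 493, 10.7 to 16.7%). It was 6.19% on chromosome 7 (26 of 420, 4.26 to 8.92%) and 6.69% on chromosome 12 (22 of 329, 4.46 to 9.92%). The share over all autosomes was 10.3%, which lies outside the intervals of these 4 chromosomes and inside those of the other 15. The intervals are not adjusted for 19 chromosomes. They also treat regions as independent, which members of a cluster are not, so they are too narrow. Clusters as a share of clusters and single gains, each counted once, were 7.39% on chromosome 5 and 7.09% on chromosome 9. On chromosomes 7 and 12 this share was 3.41% and 3.31%, and no intervals were computed for it. Closeness depends on density, and chromosomes 12 and 7 had the fewest higher regions per Mb, 2.81 and 2.95. Chromosome 19 had the most, 4.53 per Mb, with a clustered share of 9.09%. Across the 19 autosomes, Spearman's rho between clustered share and higher regions per Mb was 0.34, given as a description, since both use the same count of higher regions.

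**Figure D4:**
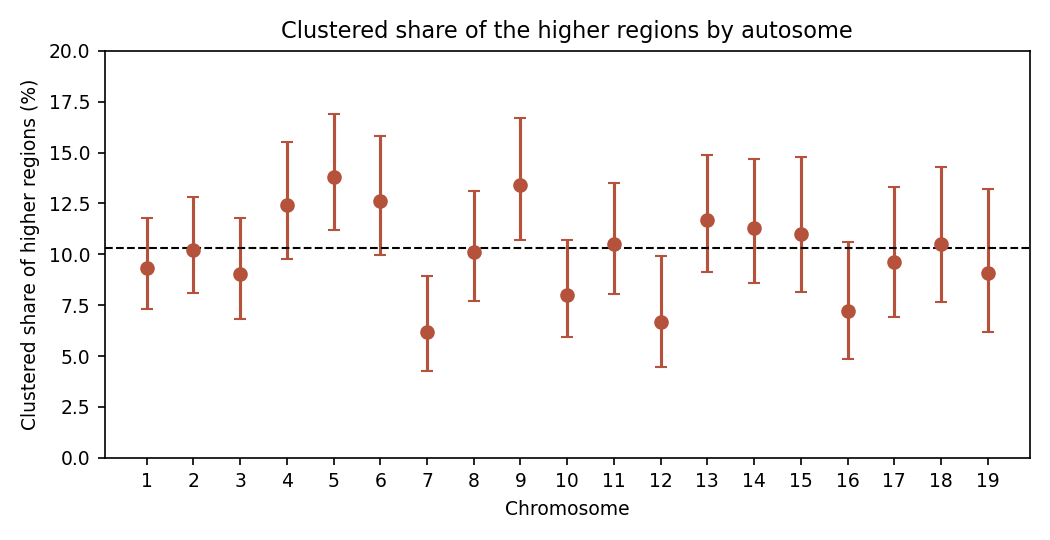
Clustered share of the higher regions in percent (y axis) for each autosome (x axis); points are shares, error bars 95% Wilson intervals, and the dashed line is the share over all autosomes, 10.3%. Chromosomes 5 and 9 lie above the line with their intervals and chromosomes 7 and 12 below it. The intervals treat regions as independent, which members of a cluster are not, so they are too narrow.

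Along the chromosomes, clustered gains were fewer toward the low-coordinate end, which in mouse chromosomes is the centromeric end. With each autosome divided into 10 equal bins, the first 3 bins held 21.2% of clustered gains (95% Wilson interval 18.6 to 24.0%) and 26.9% of single gains (25.9 to 27.9%). The last 4 bins held 48.4% (45.1 to 51.7%) and 44.1% (42.9 to 45.2%). The last bin was the fullest for clustered gains, at 13.7%, against 11.6% of single gains. The bins were grouped after their values were seen. The intervals of clustered gains treat members of a cluster as independent, so they are too narrow, and no share with each cluster counted once is given here.

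**Figure D5:**
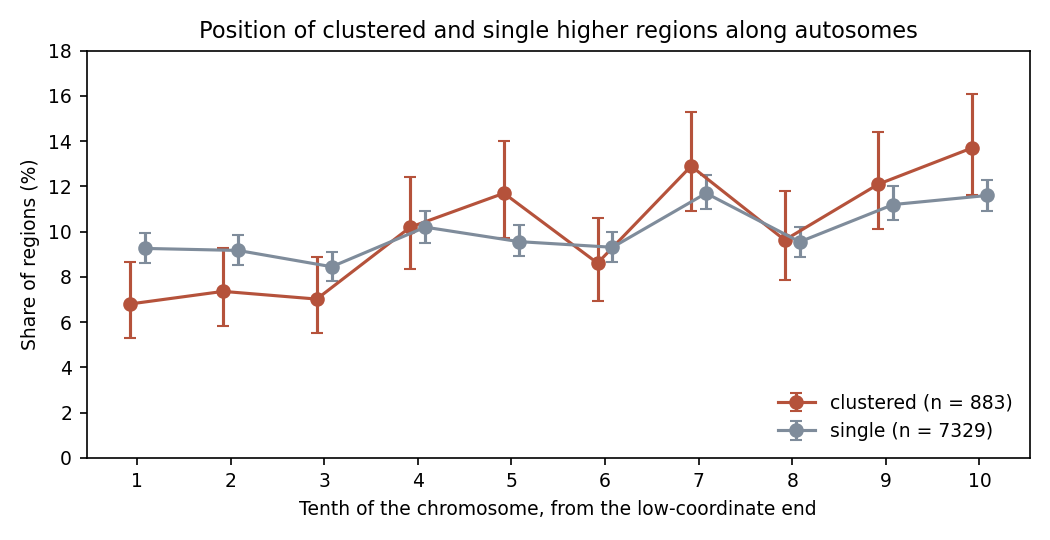
Share of clustered (red) and single (grey) higher regions in percent (y axis) in each of 10 equal bins of the autosomes, from the low-coordinate end (x axis); error bars are 95% Wilson intervals. Clustered gains run below single gains in the first 3 bins, and both are above 11% in the last 2. The intervals of clustered gains treat members of a cluster as independent, so they are too narrow.

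Beyond the distance that the rule used, the surroundings of clustered gains held somewhat more regions of both lists. Members were chosen for a close higher region of the same list. The counts below are thus a description, and their independence from that choice was not tested. Between 10 and 100 kb away, at least 1 further higher region was present for 65.6% of clustered gains (95% Wilson interval 62.4 to 68.6%) and 58.0% of single gains (56.9 to 59.2%). With each cluster counted once (430 with the 12 lone members) the share was 64.2% (59.5 to 68.6%). A lower region was present at that distance for 35.4% of clustered gains (32.4 to 38.7%) and 31.3% of single gains (30.2 to 32.3%). From 100 kb to 1 Mb away, clustered gains had a mean of 8.77 higher and 3.73 lower regions, and single gains 8.03 and 3.59. The number of genes starting within 500 kb had a median of 13 around clustered gains and 12 around single gains.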

How the data were processed

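CMS-IP and input libraries were made from mouse embryonic stem cells in 4 groups of 2 samples. The submitters' processing notes name Bismark, MACS2 and the build mm10, with no version or role. The differential test, its threshold, the use of inputs and spike-ins and the treatment of replicates are not given in the sources used here. The authors deposited 1 list of regions per direction, named as up and down in OgtiTKO, a spelling that the labels do not use and that was read here as Ogt iKO against control; lines give positions alone (chromosome, start, end), with no count, fold or p-value. Starts were read as 0-based and are printed 1-based.

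The gap between 2 regions is the number of bases between their edges. Genes came from the RefSeq table of GRCm38.p6: 49591 of 49997 genes lie on assembled chromosomes, 21770 of them protein-coding. Start sites and strands came from the RefSeq promoter windows, which were matched to genes by gene ID; 17491 protein-coding genes had a strand. Regions were assigned by midpoint, gene ends first. Shares carry 95% Wilson intervals, and intervals of differences combine those limits. Intervals over regions treat regions as independent, which members of a cluster are not. No test was made, because regions are not replicates. Nearest distances matched a direct search for 300 of 300 real positions.

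Members and gene lists (8 lists, 181 genes) were chosen with earlier results of these data known. Named were the 15 clusters with the most regions (ties by covered sequence), the 5 with the most covered sequence, the 5 closest pairs among clusters of 2, the 10 protein-coding genes with the most clustered gains (ties by number of clusters, then alphabetically, so Atp8a1 is 1 of 19 genes tied at 3), listed genes with a clustered gain (1 is not reported here), genes with an overlapped promoter window and the pairs at the 10 kb limit; Ndufs4, Dlat, Dixdc1, Ipo11 and Dimt1 were named after their values were seen. Alternatives were other gaps, midpoint distances, the handling of nearby lower regions, wider regions, gene definitions and counting by cluster. Python 3.11.15, numpy 2.4.6, pandas 2.3.3 and scipy 1.17.1 were used.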

Additional observations from a re-analysis of the deposited data

How the results depend on the processing

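The number of clusters follows the limit that defines them. Against 418 clusters and 883 regions at 10 kb, a limit of 5 kb gave 213 clusters of 436 regions (96.7% pairs), 20 kb gave 745 of 1629 (87.4% pairs) and 50 kb gave 1384 of 3351 (74.9% pairs), where 92.3% were pairs at 10 kb. With regions narrower than the median left out there were 121 clusters of 251 regions (95% pairs), where fewer regions were chained by construction. With 1 value per cluster the median width of clustered gains was 632.2 bp instead of 573 bp. That value was the median width within the cluster, for a pair the mean of both widths, so the 2 medians are unlike statistics. The difference at gene ends was 2.70 percentage points with ends of 5 kb instead of 0.44, and -0.03 with each cluster counted once; for this and for the width the cause was not tested. The other 26 of 40 recomputed values stayed within 1.5 times the count or within the stated interval; among these, the shares inside and between genes kept their sign in the 4 other settings tried, with differences of 5.34 to 9.88 and -11.12 to -8.00 percentage points. Restricting to autosomes could change nothing, since no close pair lies elsewhere. No paired analysis was possible because positions without sample values cannot be paired, and no replicate could be left out either; a stricter threshold of the authors could not be tried, as no score is given, and width stood in for it. Depth per region is unknown.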

Other observations

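By the same rule with the lists exchanged, 163 of 3961 autosomal lower regions were clustered (4.12%, 95% Wilson interval 3.54 to 4.78%), in 76 pairs and 2 clusters of 3. The share was 10.3% of the 8559 autosomal higher regions. The lower list is shorter, and the rule also leaves out regions near the other list. How far either accounts for the difference in share was not tested. Clustered lower regions had a median width of 383 bp against 318 bp for single lower regions. On X and Y, 0 of 19 higher regions had another within 10 kb.

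The cluster in Aspg on chromosome 12 (112106883 to 112110138) encloses the microRNA genes Mir3073a and Mir3073b, which lie on opposite strands between its regions, 168 and 181 bp from the nearer one.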
